A study of Mus musculus with 9 samples.

Results

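Wnt ligands, their frizzled receptors, the secreted proteins that inhibit or enhance them, and the feedback gene Axin2 were followed in RNA of whole mouse aorta. The members were the protein-coding genes of GENCODE mouse release 21 whose symbol is Wnt, Fzd, Sfrp, Dkk or Rspo followed by a digit, together with Frzb, Wif1 and Axin2. That rule gave 44 genes, of which 43 were among the 33293 identifiers of the deposited table, and Wnt3a was not analysed here. A member was counted as expressed when it reached at least 1 FPKM (reads or fragments scaled by exon length and library depth) in at least 4 of the 9 libraries, and 30 members did so. The 5 WT libraries came from wild-type C57BL/6J mice and the 4 Apoe_KO libraries from Apoe-knockout mice. All were male, 7 to 8 weeks old and on normal chow, and the labels name neither the knockout allele nor its background strain. The question was which transcripts of aortic tissue differ between these genotypes.

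Wnt proteins are lipid-modified secreted ligands that bind frizzled receptors, together with the co-receptors LRP5 and LRP6 in the canonical branch. There they stop the destruction of beta-catenin, which then acts with TCF and LEF factors on target genes such as Axin2. Secreted frizzled-related proteins and WIF1 bind the ligands outside the cell, Dickkopf proteins act at the LRP co-receptors, and R-spondins enhance signalling by keeping receptors at the surface. In vessels the pathway is known for roles in smooth muscle growth, endothelial maturation and calcification.

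The knocked-out gene followed the labels in every library, with Apoe at 513 to 643 FPKM in WT and at 5.64 to 6.55 FPKM in Apoe_KO. The libraries held 17.0 to 19.8 M counted reads or fragments each, and a single read of a transcript with 2 kb of exon corresponded to 0.0253 to 0.0294 FPKM. The labelled tissue showed its defining transcripts, since the summed level of 9 smooth muscle markers was 5006 to 5976 FPKM in WT and 5220 to 6598 FPKM in Apoe_KO, with none of the 9 at 0. Of these 9 markers 2 were called higher in Apoe_KO, Des and Itga8 (limma adjusted p = 0.0246 and 0.0399), and 0 lower, with a median log2 fold change of 0.26. Of the 8 white adipocyte markers 3 were lower in Apoe_KO and 0 higher, and their sum was 3879 to 6049 FPKM in WT and 2472 to 4735 FPKM in Apoe_KO, with none at 0. Of the 7 Schwann cell and nerve markers 1 was lower and 0 higher, with sums of 152 to 234 and 83.1 to 174 FPKM and none at 0. Of the 8 endothelial markers 1 was lower and 0 higher, with sums of 211 to 361 and 194 to 321 FPKM and none at 0. Of the 8 macrophage markers 1 was higher and 0 lower, with sums of 199 to 267 and 261 to 383 FPKM. Over all tested genes 3.43% were called higher and 3.92% lower, and 1 call among 7 or 8 markers is too few to set against these shares. Median log2 fold changes were -0.53 for the white adipocyte, -0.50 for the nerve, -0.38 for the endothelial and 0.28 for the macrophage markers. Over all tested genes the median was -0.069. None of the tested markers of the other listed cell types was called. Their medians were 0.033 for fibroblast, -0.17 for brown adipocyte, -0.44 for mesothelium and -1.43 for erythroid markers. Those of skeletal muscle, cardiac muscle, B and plasma cell and T and NK cell markers were -0.34, -0.48, -0.30 and -0.35. The mesothelium sum was 3.08 to 28.1 FPKM in WT and 6.37 to 13.9 FPKM in Apoe_KO. B and plasma cell markers stood out in WT 2 and Apoe_KO 4, whose mean log2(FPKM + 1) lay 3.30 and 2.75 above the WT mean. Whether each library came from a separate mouse is not stated, so p-values measure the spread between these samples, which may be technical. In RNA of whole tissue, fewer cells of a type and less RNA per cell cannot be told apart.

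At the level of the whole group, 2 of the 30 expressed members were called higher in Apoe_KO and 2 lower (limma, Benjamini-Hochberg adjusted p under 0.05 over 13383 tested genes). These 4 members are 13.3% of the 30, where 7.35% of all tested genes were called, 3.43% higher and 3.92% lower. Over all genes 459 were called higher and 524 lower, and with median centring of the libraries 630 and 269. Axin2 and Wnt5a fell, whereas Frzb, of the secreted frizzled-related proteins, and Dkk3, of the Dickkopf family, rose. No overlap between genotypes was seen for Axin2, Wnt5a, Frzb and Wnt5b, 4 of the 30, and 12.4% of all tested genes had groups that did not overlap. The median log2 fold change of the 30 members was -0.066, beside -0.069 over all tested genes. Fold changes here are of FPKM + 1 unless voom is named, and those of FPKM + 1 understate the change of genes of low level.

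**Figure D1:**
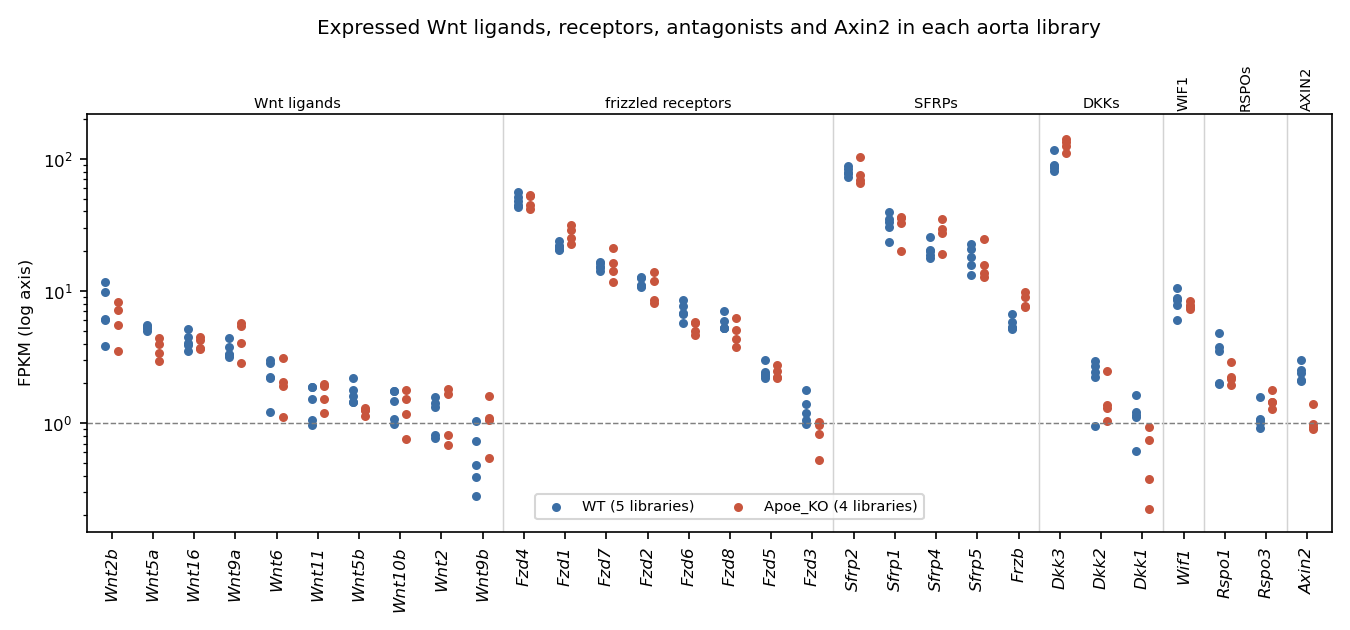
FPKM on a log axis of the 30 expressed members in each of 5 WT (blue) and 4 Apoe_KO (red) libraries, ordered by role and by mean level, with a dashed line at 1 FPKM. Dkk3 and Sfrp2 lie highest, and Axin2 is the member near the dashed line whose genotypes separate most.

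Axin2, a scaffold of the beta-catenin destruction complex that canonical Wnt signalling itself induces, fell in Apoe_KO aorta to 43.5% of its WT level. It was at 2.10, 2.39, 2.54, 2.99 and 2.08 FPKM in WT 1 to 5 and at 1.39, 0.939, 0.906 and 0.980 FPKM in Apoe_KO 1 to 4. Every Apoe_KO library lay below every WT library, and Apoe_KO 1 was the highest of its group. The means were 2.42 ± 0.373 (SD, n = 5) and 1.05 ± 0.224 FPKM (SD, n = 4), from 213 to 315 and 94 to 149 reads. The log2 fold change was -0.74 (SE 0.11, limma adjusted p = 0.00552), and the two-sided exact permutation p was 0.0159, the lowest value possible with 5 against 4 libraries. The gene (ENSMUSG00000000142, chromosome 11, 108920349 to 108950783, plus strand, GRCm38) shares 209 exonic bases with the antisense gene Gm11670, whose own reads numbered 12 over all WT and 1 over all Apoe_KO libraries. Axin2 was called in each of the 9 fits that left out 1 library and without WT 2 and Apoe_KO 4 together. With the replicate number added to the fit as a block, Axin2 was not called (limma adjusted p = 0.0755). It passed the expression filter through WT, since 5 WT libraries but only 1 Apoe_KO library reached 1 FPKM. Some of the smooth muscle, adipocyte, nerve, endothelial and macrophage markers given above were called between genotypes too. The part of these and of the other cell types given above, in this result and in those that follow, was not tested.

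Upstream sequence is shown for Axin2 and for Wnt5b, which both lay lower in every Apoe_KO library and whose windows hold no exon of the annotation. These are the 250 bases before a RefSeq start site (GRCm38.p6), at chr11:108920099-108920348 on the plus strand and, for 1 of the 3 starts of Wnt5b, at chr6:119449387-119449636 on the minus strand. Capitals mark the TCF/LEF core CTTTGA on either strand (TCAAAG on the other), searched as an exact match with no other motif.
Axin2: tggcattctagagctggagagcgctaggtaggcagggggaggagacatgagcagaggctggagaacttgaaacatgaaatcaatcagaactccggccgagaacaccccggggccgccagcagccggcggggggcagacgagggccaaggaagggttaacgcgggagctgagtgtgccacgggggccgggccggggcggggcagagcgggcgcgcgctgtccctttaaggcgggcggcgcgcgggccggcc
Wnt5b: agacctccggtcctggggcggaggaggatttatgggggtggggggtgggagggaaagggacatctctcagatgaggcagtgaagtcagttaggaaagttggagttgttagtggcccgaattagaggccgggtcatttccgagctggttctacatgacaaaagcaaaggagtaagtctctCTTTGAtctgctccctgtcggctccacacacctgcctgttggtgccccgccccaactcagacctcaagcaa
The Wnt5b window shown holds the core with its first base 71 bases before the start, and these letters are not in the Axin2 window. The windows at the other Wnt5b starts do not hold the core either, among them the one at the upstream end of the gene (chr6:119544348-119544597). The start shown lies inside the annotated gene (chr6:119432531-119544347), and which start is used in aorta was not tested. Among the 32851 windows of the same length in the table, 13.8% hold the core. Of the 30 expressed members 21 had a window, with 24 windows in all. Of those 21 genes 5 hold it in any of their windows, namely Dkk1, Frzb, Fzd1, Wnt11 and Wnt5b. This is a count of genes, whereas the 13.8% is of windows. A match is a string of letters and not a measured binding site. Among the others, Dkk3, Wnt5a, Fzd6 and Sfrp4 had no entry.

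**Figure D2:**
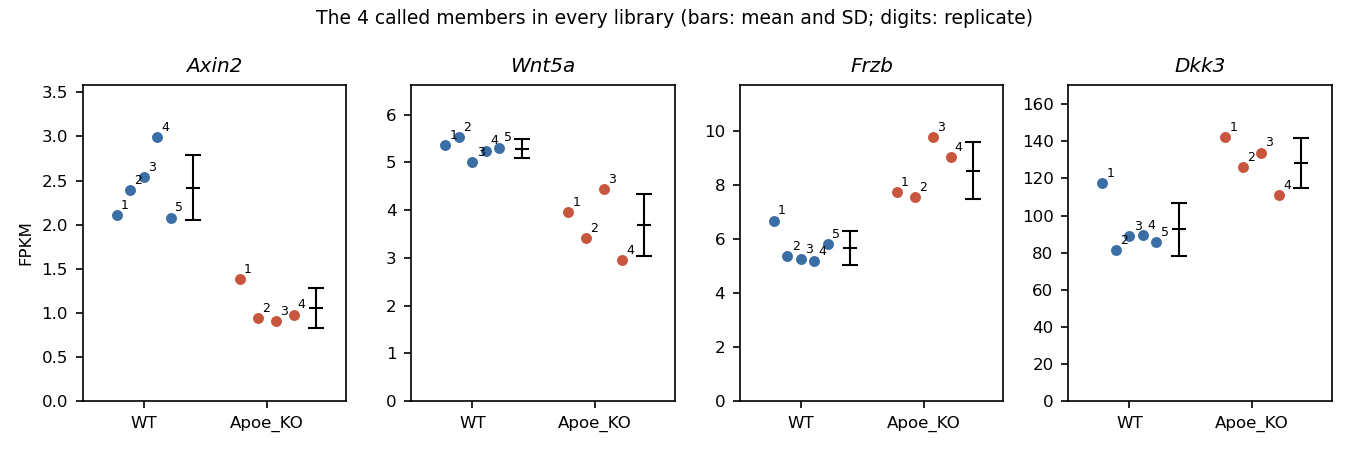
FPKM of Axin2, Wnt5a, Frzb and Dkk3 in every library, with the replicate number beside each point and the mean and SD of each genotype as a bar to its right (5 WT, 4 Apoe_KO). The genotypes do not overlap for Axin2, Wnt5a and Frzb, while WT 1 lies within the Apoe_KO range of Dkk3.

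Of the 18 measured Wnt ligands 10 were expressed, all at 11.8 FPKM or less in any library. Wnt5a, the main ligand of beta-catenin-independent signalling, fell from 5.29 ± 0.192 to 3.69 ± 0.645 FPKM. The WT libraries held 5.36, 5.53, 5.0, 5.25 and 5.31 FPKM and the Apoe_KO libraries 3.96, 3.41, 4.44 and 2.96 FPKM. WT values were tightly grouped, Apoe_KO values were more spread, and the genotypes did not overlap. Its log2 fold change was -0.43 (SE 0.094, limma adjusted p = 0.0246, two-sided exact permutation p = 0.0159). Wnt5a shares 358 exonic bases with the antisense gene Gm2670, which had 20 reads over all WT and 15 over all Apoe_KO libraries. The call was lost without WT 1, WT 2, WT 4 or WT 5 (adjusted p = 0.0535, 0.0549, 0.0608 and 0.0541), without WT 2 and Apoe_KO 4 together (0.0791), with no filter (0.0644), and with median centring (0.0588) or quantile normalization (0.0772). With the replicate block it was lost too (limma adjusted p = 0.147).

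The related ligand Wnt5b was at 1.79, 1.44, 2.18, 1.62 and 1.44 FPKM in WT and at 1.25, 1.26, 1.14 and 1.29 FPKM in Apoe_KO. Its groups did not overlap either, but it was not called (log2 fold change -0.26, limma adjusted p = 0.145, exact permutation p = 0.0159). Wnt5a made up 16.5% to 19.6% of the summed ligand FPKM in each WT library and 13.1% to 13.7% in each Apoe_KO library.

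Wnt2b, a canonical ligand, was the ligand of the highest mean level and the widest range in FPKM. It ranged from 3.82 to 11.8 FPKM in WT and from 3.50 to 8.29 FPKM in Apoe_KO, and the 95% interval of its log2 fold change was -0.91 to 0.46. Wnt16 was at 4.24 ± 0.624 and 4.02 ± 0.422 FPKM, with an interval of -0.29 to 0.17. Wnt9a was at 3.59 ± 0.502 FPKM in WT, and its Apoe_KO libraries held 5.69, 4.06, 5.41 and 2.83 FPKM, of which 2 lay above, 1 within and 1 below the WT range of 3.17 to 4.38 FPKM. Wnt6, Wnt11, Wnt10b and Wnt2 had means of 1.18 to 2.29 FPKM in WT, and their adjusted p ran from 0.688 to 0.960. Wnt9b was at 0.586 ± 0.306 and 1.08 ± 0.433 FPKM (log2 fold change 0.38, adjusted p = 0.226), and it passed the filter through 1 WT and 3 Apoe_KO libraries.

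The other 8 measured ligands stayed under 1 FPKM in every library. Among them Wnt4, a ligand with canonical and non-canonical roles, was at 0.205, 0.0982, 0.228, 0.0997 and 0.179 FPKM in WT and at 0.391, 0.437, 0.304 and 0.442 FPKM in Apoe_KO. That is 64 reads over the 5 WT and 124 over the 4 Apoe_KO libraries, and the groups did not overlap. Wnt4 was singled out after its values were seen. Wnt10a, Wnt7a and Wnt7b had at most 21 reads in any library, and Wnt1, Wnt8b, Wnt3 and Wnt8a at most 9. Wnt8a had 0 reads in all WT and Wnt3 0 reads in all Apoe_KO libraries, against 2 and 6 reads in the other genotype.

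**Figure D3:**
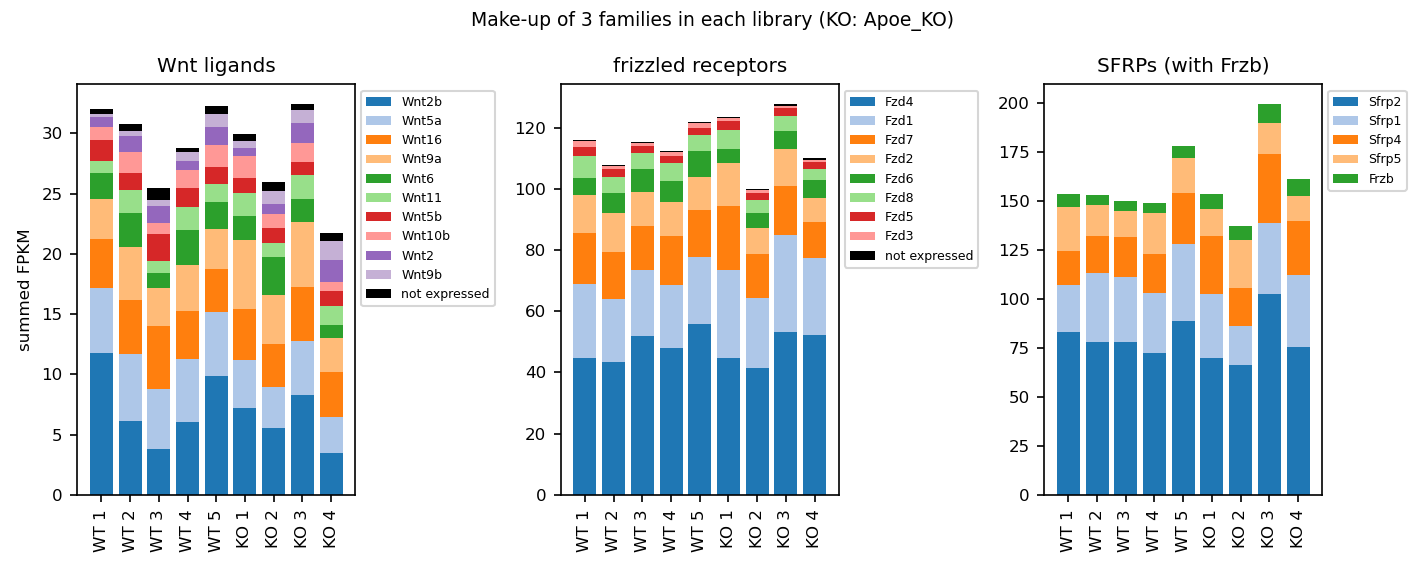
Summed FPKM of the Wnt ligands, the frizzled receptors and the secreted frizzled-related proteins (Frzb among them) in each library, stacked by gene, with members under the expression rule in black. The ligand stack reaches 21.7 to 32.4 FPKM and the frizzled stack 99.9 to 128 FPKM over the 9 libraries, and Fzd4 and Sfrp2 form the largest blocks of their families.

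All 10 frizzled receptor genes were measured, 8 were expressed and none was called. Per length they were read more than the ligands, with a summed level of 115 ± 5.09 FPKM in WT and 115 ± 12.7 FPKM in Apoe_KO, beside 29.9 ± 2.81 and 27.5 ± 4.69 FPKM for the ligands. Fzd4, the receptor that also binds norrin in endothelium, held 42.4% and 41.7% of the frizzled sum. It was at 48.8 ± 5.12 and 47.9 ± 5.71 FPKM, and its log2 fold change had a 95% interval of -0.25 to 0.20. Fzd7 (15.5 ± 0.997 and 15.8 ± 4.0 FPKM) and Fzd5 (2.46 ± 0.313 and 2.42 ± 0.254 FPKM) had intervals of -0.31 to 0.30 and -0.22 to 0.19.

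Fzd1 was at 24.0, 20.8, 21.9, 20.6 and 21.9 FPKM in WT and at 28.8, 22.8, 31.8 and 25.0 FPKM in Apoe_KO. Only Apoe_KO 2 lay within the WT range, and the log2 fold change of 0.29 (SE 0.095) was not called (limma adjusted p = 0.0937). It was called without Apoe_KO 2 (0.0321), with library weights (0.0208) and by voom on the recovered reads (0.0480). Fzd6, which signals mainly through planar cell polarity, was at 5.73, 6.67, 7.74, 6.80 and 8.50 FPKM in WT and at 4.62, 4.98, 5.81 and 5.77 FPKM in Apoe_KO. Apoe_KO 3 and 4 lay just above WT 1 and below the other 4 WT libraries. Its log2 fold change of -0.36 (SE 0.11) was not called (limma adjusted p = 0.0758). It was called without WT 1 (0.0496) and with library weights (0.0493).

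Fzd2, Fzd8 and Fzd3 had log2 fold changes of -0.15, -0.23 and -0.31 (adjusted p = 0.569, 0.317 and 0.182). Fzd3 passed the filter through 4 WT libraries and 1 Apoe_KO library. Fzd9 (0.234 to 0.760 FPKM) and Fzd10 (at most 7 reads in a library) were not expressed by the rule. The exons of Fzd6 and Fzd5 overlap antisense transcripts of at most 34 reads per genotype.

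**Figure D4:**
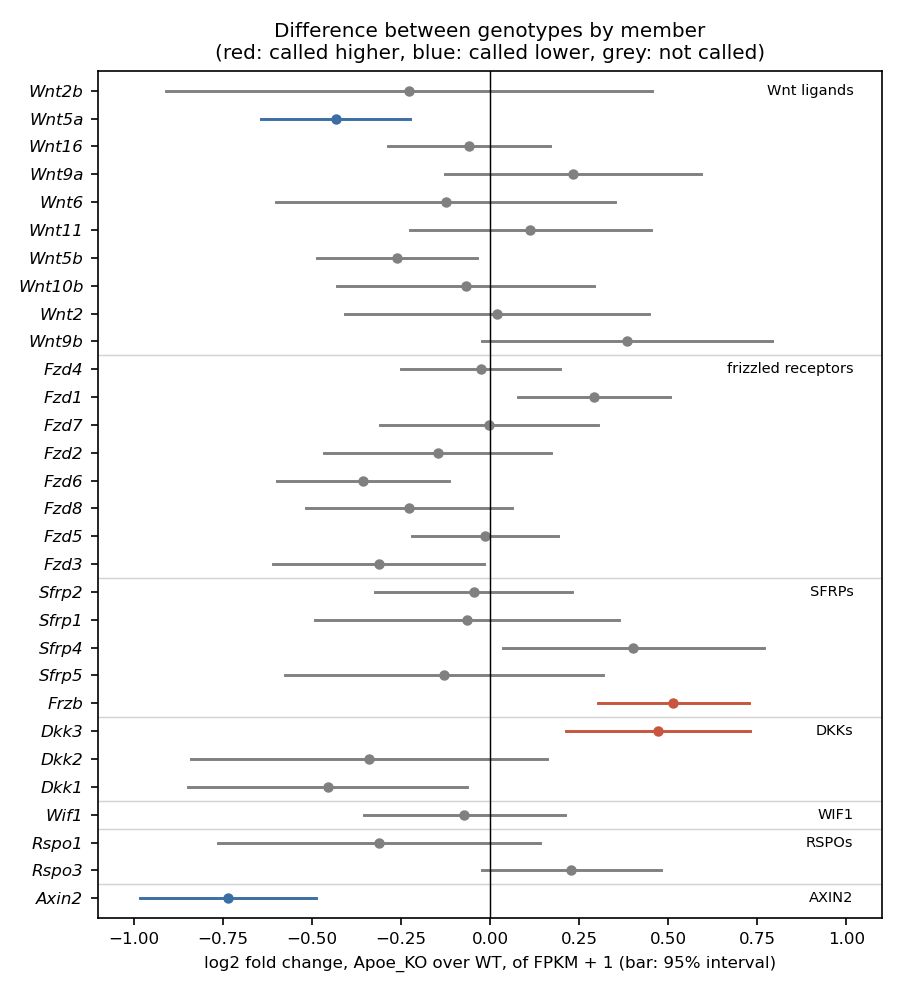
Log2 fold change of FPKM + 1, Apoe_KO over WT, with its 95% limma interval, for the 30 expressed members by role (9 libraries). Axin2 and Wnt5a (blue) were called lower, Frzb and Dkk3 (red) higher, and the 8 frizzled intervals are grey.

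Secreted frizzled-related proteins carry a frizzled-like domain that binds Wnt, and all 5 genes were expressed. Frzb, also known as sFRP3, rose from 5.66 ± 0.624 to 8.53 ± 1.06 FPKM, 1.51 times the WT mean. It was at 6.69, 5.38, 5.25, 5.18 and 5.81 FPKM in WT and at 7.75, 7.56, 9.78 and 9.04 FPKM in Apoe_KO. Every Apoe_KO library lay above every WT library. The log2 fold change was 0.51 (SE 0.095, limma adjusted p = 0.0136, two-sided exact permutation p = 0.0159), and the gene (ENSMUSG00000027004, chromosome 2, 80411970 to 80447625, minus strand) overlaps no other exon. It was called without any single library, but not without WT 2 and Apoe_KO 4 together (log2 fold change 0.47, adjusted p = 0.0688). Nor was it called with the replicate block (limma adjusted p = 0.120).

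The other 4 were not called. Sfrp2 was the most abundant, at 80.2 ± 6.20 and 78.6 ± 16.6 FPKM, with a 95% interval of -0.32 to 0.23 for its log2 fold change. Sfrp1 was at 32.5 ± 5.87 and 31.4 ± 7.65 FPKM and Sfrp5, an adipose-expressed member, at 18.1 ± 3.71 and 16.7 ± 5.38 FPKM. Sfrp5 was highest in WT 1 (22.5 FPKM) and Apoe_KO 2 (24.6 FPKM), so that each genotype spanned most of the other.

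Sfrp4 was at 17.6, 18.8, 20.4, 19.97 and 25.8 FPKM in WT and at 29.6, 19.1, 35.2 and 27.5 FPKM in Apoe_KO. Apoe_KO 2 lay within the WT range and the other 3 above it. The log2 fold change of 0.40 (SE 0.16) was not called with all libraries (limma adjusted p = 0.165) and was called without Apoe_KO 2 (0.57, adjusted p = 0.0270). Frzb made up 3.26% to 4.35% of the summed FPKM of this family in each WT library and 4.89% to 5.59% in each Apoe_KO library.

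Dkk3, a divergent Dickkopf for which binding to the LRP co-receptors is not established, was the most abundant of all 43 members and rose in Apoe_KO. It was at 118, 81.2, 89.1, 89.5 and 85.9 FPKM in WT and at 142, 126.03, 134 and 111 FPKM in Apoe_KO. WT 1 lay above Apoe_KO 4 and below the other 3 Apoe_KO libraries. The means were 92.6 ± 14.3 and 128 ± 13.3 FPKM, a ratio of 1.38, with a log2 fold change of 0.47 (SE 0.12, limma adjusted p = 0.0387, exact permutation p = 0.0317). Dkk3 (ENSMUSG00000030772, minus strand, 112116017 to 112159057) lies on chromosome 7, which also holds Apoe 92.4 Mb away. The call was lost in 7 of the 9 fits that left out 1 library, those without WT 2, WT 3, WT 4, WT 5, Apoe_KO 1, Apoe_KO 2 or Apoe_KO 3 (adjusted p = 0.0821, 0.0685, 0.0862, 0.0859, 0.0951, 0.0547 and 0.108). It was also lost without WT 2 and Apoe_KO 4 together (0.0659), with no filter (0.0946), with quantile normalization (0.0717) and with the replicate block (0.110).

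The classical LRP antagonists were far less abundant. Dkk1 was at 1.63, 1.11, 0.612, 1.21 and 1.15 FPKM in WT and at 0.929, 0.377, 0.744 and 0.224 FPKM in Apoe_KO, or 28 to 78 and 10 to 44 reads. WT 3 lay within the Apoe_KO range, and the log2 fold change of -0.46 (SE 0.18) was not called (limma adjusted p = 0.144). Dkk1 passed the filter through 4 WT and 0 Apoe_KO libraries. Dkk2 was at 2.25 ± 0.777 and 1.55 ± 0.648 FPKM (adjusted p = 0.383), and Dkk4 had 1 read in 1 library. Dkk3 thus formed 95.6% to 98.2% of the summed Dickkopf FPKM in WT libraries and 97.6% to 98.7% in Apoe_KO libraries.

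Wif1, which binds Wnt directly, was at 8.36 ± 1.66 and 7.80 ± 0.475 FPKM, with an interval of -0.35 to 0.21 for its log2 fold change. Of the R-spondin genes, Rspo1 was at 3.22 ± 1.21 and 2.31 ± 0.426 FPKM (adjusted p = 0.377) and Rspo3, an R-spondin of endothelium, at 1.13 ± 0.261 and 1.48 ± 0.213 FPKM (adjusted p = 0.245). Rspo3 overlaps the antisense gene Gm48159 over 404 exonic bases, and Wnt11 and Sfrp2 overlap antisense or pseudogene exons likewise. Rspo2 was at 0.145 to 0.562 FPKM in WT and at 0.105 to 0.332 FPKM in Apoe_KO, and Rspo4 had 1 read in 1 library.

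Beyond the members, 113 further genes of the pathway were listed, 94 were tested, and 5 were called higher and 4 lower in Apoe_KO. Among all tested genes 3.43% were called higher and 3.92% lower, so the share of these 94 was near the background. Their median log2 fold change was 0.0045, beside -0.069 over all tested genes. These lists were chosen with earlier results of these data known. Of 10 co-receptors 7 were tested and 1 rose, Reck, a membrane protein that assists certain Wnt signals in endothelium, from 20.3 ± 0.954 to 25.4 ± 2.98 FPKM (log2 fold change 0.30, limma adjusted p = 0.0476). The canonical co-receptors Lrp5 and Lrp6 were at 9.89 and 16.2 FPKM in WT and at 9.60 and 16.7 FPKM in Apoe_KO. None of 7 tested secretion genes or of 3 R-spondin receptors and ligases was called (limma, unadjusted p under 0.05 for Tmed2 and Wls only). Voom called none of these genes either. Tmed2, a cargo receptor, and Wls, which carries Wnt to the cell surface, had log2 fold changes of 0.16 and 0.14 (adjusted p = 0.149 and 0.165). Lgr4 and Znrf3 were at 0.14 and 0.15 (adjusted p = 0.357 and 0.344).

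Of the 10 tested other extracellular modulators 2 fell. Sostdc1, an inhibitor of Wnt and BMP signals, was at 8.89, 5.88, 5.78, 6.11 and 4.59 FPKM in WT and at 2.19, 4.63, 2.92 and 2.08 FPKM in Apoe_KO. Apoe_KO 2 lay just above the lowest WT library, WT 5, and the other 3 lay below all of WT. The log2 fold change was -0.89 (SE 0.20, limma adjusted p = 0.0293), on FPKM + 1 the largest in size among the members and the pathway genes called lower. In mean FPKM Axin2 fell further, to 43.5% of WT, beside 47.3% for Sostdc1. Apcdd1, a membrane-bound Wnt inhibitor that is also a Wnt target, fell from 15.1 ± 2.09 to 10.6 ± 1.36 FPKM (log2 fold change -0.47, adjusted p = 0.0390).

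In the destruction complex 1 of 19 genes was called. Axin1, the constitutive counterpart of Axin2, rose from 10.01 ± 1.04 to 13.1 ± 0.907 FPKM, and its groups did not overlap (log2 fold change 0.36, SE 0.084, limma adjusted p = 0.0322). Axin1 was thus higher in the same libraries in which Axin2 was lower. Of 16 tested nuclear genes 2 rose, the co-repressor gene Tle1 from 6.53 ± 0.708 to 8.94 ± 0.727 FPKM (0.40, adjusted p = 0.0220) and Tcf7l1, a TCF factor that mainly represses, from 8.85 ± 0.668 to 11.7 ± 1.12 FPKM (0.37, adjusted p = 0.0233). Antisense genes overlap Tle1 and Tcf7l1. Ctnnb1, the gene of beta-catenin, was at 105 ± 4.94 and 112 ± 7.65 FPKM (adjusted p = 0.441). Of 24 tested genes of planar polarity and calcium signalling 1 fell, the atypical cadherin gene Celsr2, from 3.56 ± 0.364 to 2.47 ± 0.196 FPKM (-0.39, adjusted p = 0.0233).

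Among 20 listed target genes 11 were tested, 2 fell and 1 rose, with a median log2 fold change of -0.14, beside -0.069 over all tested genes. Of all tested genes 3.43% were called higher and 3.92% lower, and 11 genes are few to compare with these shares. Bambi, a pseudoreceptor of TGF-beta signalling that Wnt can induce, was at 3.33, 3.13, 3.55, 3.68 and 3.41 FPKM in WT and at 2.21, 2.43, 2.40 and 2.43 FPKM in Apoe_KO. All Apoe_KO libraries lay below all WT libraries (log2 fold change -0.39, SE 0.070, limma adjusted p = 0.0117). Apcdd1, counted above, fell as well. Myc, a growth regulator under many inputs, went the other way, from 3.57 ± 1.14 to 8.38 ± 3.48 FPKM (1.00, SE 0.26, adjusted p = 0.0476). Nkd1, like Axin2 a feedback inhibitor, was at 11.1 ± 1.24 and 10.2 ± 2.23 FPKM (-0.14, adjusted p = 0.568), and Znrf3, another feedback gene, was not called. Lgr5, Notum, Rnf43, Sp5 and Lef1 were among the listed targets that did not pass the filter. Of the 9 called pathway genes Bambi alone was called in all 9 fits that left out 1 library and without WT 2 and Apoe_KO 4 together. Among the fits that left out 1 library, Myc was called only without Apoe_KO 1 and Axin1 only without WT 2 or Apoe_KO 2. Reck was called only without Apoe_KO 2 or Apoe_KO 4, and Apcdd1 only without WT 3 or Apoe_KO 2. Tle1 lost its call only without Apoe_KO 3, and Tcf7l1, Celsr2 and Sostdc1 lay between. Bambi was not called with quantile normalization or with the replicate block.

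**Figure D5:**
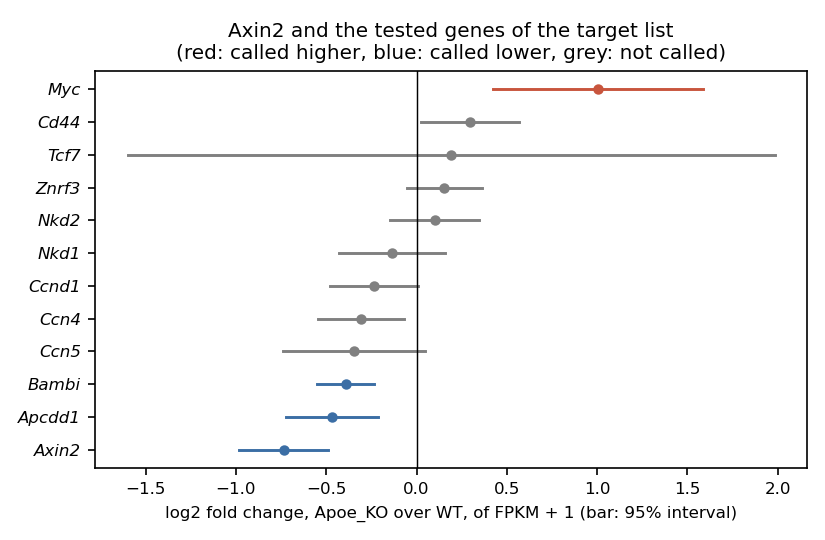
Log2 fold change of FPKM + 1, Apoe_KO over WT, with its 95% limma interval, for Axin2 and the 11 tested genes of the target list (9 libraries). Axin2, Apcdd1 and Bambi (blue) were called lower and Myc (red) higher, and the other 8 intervals are grey.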

How the data were processed

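RNA of mouse aorta was sequenced in 9 libraries (5 WT, 4 Apoe_KO). The authors deposited 1 table without a unit in its header. Its values were taken to be FPKM deposited by the authors, because multiplying each by the union exon length of its gene (GENCODE mouse release 21) and by 1 depth per library returned whole reads (97.6% to 97.9% of values up to 50 reads, within 0.1 read). The submitters' processing notes name GRCm38 and limma. The aligner, counter, annotation and strand setting were not given in the sources used here. Per the labels, the protocol removes ribosomal RNA, while their molecule field says polyA RNA.

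Genes reaching 1 FPKM in 4 or more libraries entered a limma fit (version 3.58.1, R 4.3.3) of log2(FPKM + 1) on genotype alone, with trended and robust variance moderation, and p-values were adjusted over all 13383 tested genes. The limma fit was tested on simulated reads, without differences of tissue make-up between the libraries. The permutation, block and voom steps were not tested that way. Exact permutation tests used scipy 1.17.1. Members and lists were chosen with earlier results of these data known. Every expressed member is named, with up to 4 called genes per pathway list, or the 2 of smallest p. Lrp5, Lrp6, Ctnnb1, Nkd1 and the untested targets Lgr5, Notum, Rnf43, Sp5 and Lef1 are named outside that rule, chosen after their values were seen. Alternatives were a replicate block, leaving out libraries, other pseudocounts, filters and scalings, library weights and voom. Ighm and Trbc2 were not matched to a row.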

Additional observations from a re-analysis of the deposited data

Results flagged for a closer look

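In 4 groups of libraries a single value lay far from the rest of its group. Dkk3 was at 118 FPKM in WT 1, above 81.2 to 89.5 FPKM in the other 4 WT libraries. Axin2 was at 1.39 FPKM in Apoe_KO 1, above 0.906 to 0.980 FPKM in the other 3. Rspo3 was at 1.58 FPKM in WT 2, above 0.922 to 1.08 FPKM. Bambi was at 2.21 FPKM in Apoe_KO 1, below 2.40 to 2.43 FPKM. In all, 86 groups were checked, and chance flags about 1 group in 20.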

How the results depend on the processing

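Genes called higher and lower over the whole table numbered 121 and 62 with a replicate block, 203 and 174 without WT 2 and Apoe_KO 4 together, 247 and 198 with no filter, 362 and 220 with a filter of 10 FPKM, 630 and 269 with median centring, 485 and 240 with quantile normalization, 702 and 1055 with library weights, and 719 and 385 by voom. Members called higher and lower were, in the same order, 0 and 0, 0 and 1, 1 and 1, 1 and 0 (9 members tested), 2 and 1, 1 and 1, 3 and 3, and 3 and 2. The other pathway genes were 1 and 0, 0 and 2, 0 and 1, 3 and 1, 5 and 2, 4 and 1, 5 and 7, and 7 and 4. A pseudocount of 0.1 kept 2 and 2 members. Leaving out 1 library gave 205 to 576 genes higher and 178 to 683 lower, 1 to 3 members higher and 1 to 2 lower, and 0 to 5 pathway genes higher and 1 to 5 lower.

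The labels do not say whether the replicate numbers pair the samples. In deviations from the group means, same-numbered libraries had correlations of 0.26, -0.27, -0.13 and -0.22, and differently numbered ones -0.42 to 0.61. Deviations within a group offset each other, so these correlations cannot decide whether the samples were paired. With the replicate block, limma called 0 members. At an unadjusted limma p under 0.05 there were 5 higher and 3 lower, against 4 and 6 without the block. The limma adjusted p with the block was 0.0755 for Axin2, 0.120 for Frzb, 0.110 for Dkk3 and 0.147 for Wnt5a. WT 5 has no counterpart and adds nothing to that fit.

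No called member changed sign under any alternative. Uncalled members near 0 did. With the replicate block the log2 fold changes were 0.024 for Fzd4 and 0.0080 for Sfrp1. Without WT 2 and Apoe_KO 4 they were 0.12 for Fzd7, 0.0058 for Fzd5, 0.10 for Wnt6 and 0.11 for Wnt10b. Median centring gave 0.022 for Sfrp2, 0.042 for Fzd4, 0.0030 for Sfrp1, 0.066 for Fzd7, 0.0087 for Wnt16, 0.055 for Fzd5 and 0.00017 for Wnt10b. Quantile normalization gave 0.020 for Fzd7, 0.041 for Wnt16, 0.10 for Fzd5, 0.0080 for Wnt6 and 0.078 for Wnt10b. Library weights gave 0.057 for Sfrp2, 0.069 for Fzd7, 0.037 for Wnt16 and 0.023 for Fzd5. Voom gave 0.018 for Sfrp2, 0.037 for Fzd4, 0.061 for Fzd7 and 0.045 for Fzd5. Leaving out 1 library gave -0.14 to 0.12 for Fzd7, -0.17 to 0.0095 for Wif1, -0.059 to 0.040 for Fzd5, -0.10 to 0.15 for Wnt2, -0.11 to 0.0017 for Wnt16, -0.077 to 0.038 for Fzd4, -0.17 to 0.13 for Sfrp1, -0.18 to 0.029 for Sfrp2, -0.28 to 0.037 for Wnt6 and -0.16 to 0.058 for Wnt10b. The causes were not tested. Depth limits the members near the filter, such as Dkk1 with 10 to 78 reads per library.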
